A study of Homo sapiens with 2 samples.

Results

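The genes described here are amino acid transporters of 5 solute carrier families, SLC1, SLC7, SLC36, SLC38 and SLC43. Members were the rows of the deposited table whose platform-annotation symbol consists of one of these family names, the letter A and a number, apart from *SLC7A11*, the cystine/glutamate exchanger, which is given only beside them. The rule found 38 genes, each with 1 row, among 21448 rows, of which 17709 carry a gene symbol. There were 7 genes of SLC1, 12 of SLC7, 4 of SLC36, 12 of SLC38 and 3 of SLC43.

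VMRC-LCD, a lung adenocarcinoma cell line with neuroendocrine (NE) differentiation, was transfected with a negative control siRNA (si-NC) or with siRNA no2 against the long non-coding RNA *DRAIC* (si-*DRAIC*2), each at 20 nmol/L for 72 h. Total RNA of each condition was measured on 1 Human Clariom S array, which summarizes the probes of a gene into 1 log2 signal per transcript cluster. With 1 array per condition, and 1 siRNA against *DRAIC*, no difference has a replicate check and no test could be made, and every value below describes these 2 arrays. No row is named *DRAIC* in the annotation used here, so the knockdown could not be checked on its target.

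Log2 signals ran from 2.08 to 18.1 in si-NC and from 2.25 to 18.2 in si-*DRAIC*2, with medians of 7.03 and 6.99. As a gauge for genes that are not expressed, 493 rows of sensory receptor families (olfactory, taste, vomeronasal, trace amine), keratin-associated proteins and beta-defensins were presumed silent in VMRC-LCD. The 95th percentile of their mean log2 signals, 6.0, is called the silent level here. The 8 measured markers of NE cells and the 4 epithelial markers were all above the silent level. Of 4 fibroblast markers only *COL1A2* was above it, and none of 4 blood and endothelial markers was. Differences were taken as si-*DRAIC*2 minus si-NC on the log2 scale. Genes are called higher or lower past a linear fold change of 1.5, which is a log2 difference of 0.585 in size. Signals of different genes come from different probes and are not ordered against each other.

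Cells take up, exchange and export amino acids through carriers of several unrelated protein families. SLC1 holds the sodium-coupled glutamate transporters and 2 exchangers of small neutral amino acids, SLC7 the cationic amino acid transporters and the light chains that pair with a heavy chain of the SLC3 family, SLC36 proton-coupled carriers, SLC38 sodium-coupled carriers of glutamine, alanine and related amino acids, and SLC43 facilitators of large neutral amino acids. When amino acids run short or the endoplasmic reticulum is stressed, the transcription factor ATF4 raises the transcription of many of these genes. Leucine, arginine and glutamine brought in by such carriers feed protein synthesis and signal to the kinase mTORC1 at the lysosome.

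Of the 38 transporter genes, *SLC43A1* was lower in si-*DRAIC*2 past 1.5-fold, none was higher, and 37 lay within 1.5-fold. Over all rows, 6.26% were lower and 5.13% higher, 11.4% together, against 2.63% of the transporters. *SLC7A11*, which the rule keeps out of this share, was also lower past 1.5-fold. The transporters had a median log2 difference of −0.028 and all rows one of −0.011, with 20 transporters below 0 and 18 above it. In size, 21 differences were under 0.2, 9 lay between 0.2 and 0.3, 7 between 0.3 and the limit of 1.5-fold and 1 past it.

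**Figure D1:**
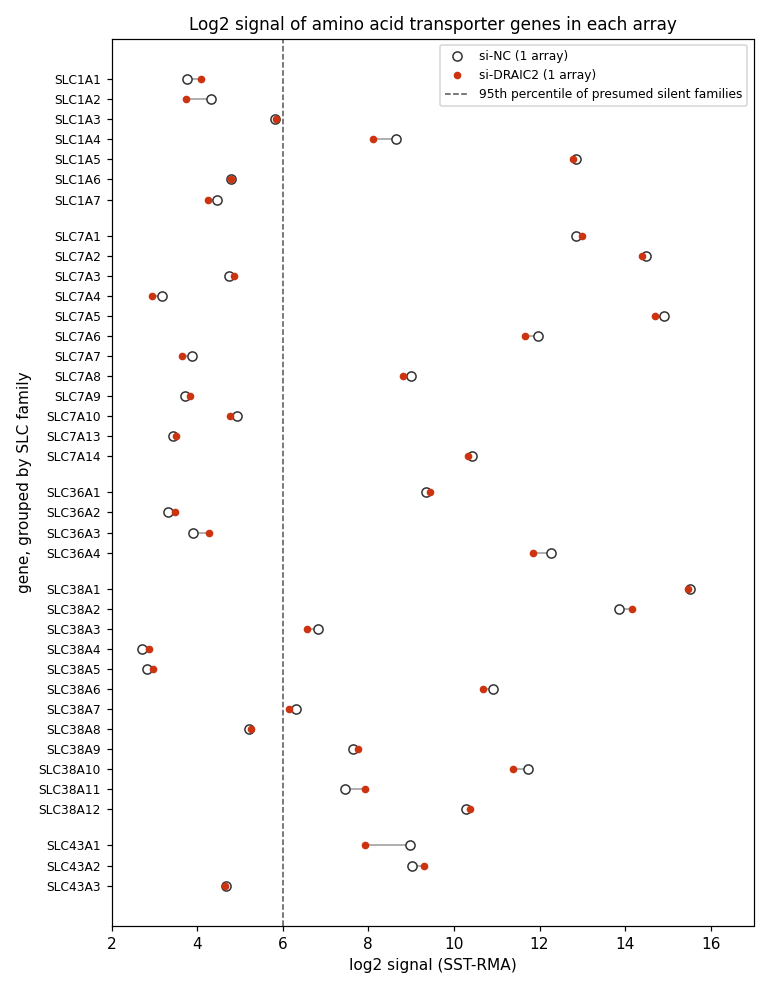
Log2 signal (horizontal axis) of each of the 38 transporter genes, grouped by SLC family, in si-NC (open circles) and si-DRAIC2 (red circles), 1 array each. The dashed line is the silent level of 6.0, and 21 genes have a mean signal above it. The gap between the circles is widest for SLC43A1, from 8.98 to 7.92.

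By this gauge, 21 of the transporters had a mean signal above the silent level and 17 at or below it. Above it were 2 of 7 genes of SLC1, 6 of 12 of SLC7, 2 of 4 of SLC36, 9 of 12 of SLC38 and 2 of 3 of SLC43. The 17 genes at or below it had signals that presumed silent genes also have, and their differences ran from −0.57 to 0.37 with a median of 0.040. None of the 17 passed 1.5-fold. Of all rows at or below the silent level 7.53% were lower and 6.72% higher, 14.3% together. With only 17 genes, this gap was not tested. Of the silent families themselves, 14.6% of rows passed 1.5-fold. Among the 21 transporters above the silent level, 14 differences were below 0 and 7 above it, with a median of −0.092. *SLC7A11*, lower and also above this level, is not among the 21. For all 12341 rows above that level 51.6% of differences were below 0, the median was −0.011, and 9.28% of rows passed 1.5-fold, 5.32% lower and 3.95% higher, against 4.76% of these transporters, the 1 lower gene *SLC43A1*.

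*SLC43A1* encodes LAT3, a facilitator that carries leucine, isoleucine, phenylalanine and methionine down their gradients without sodium. Its log2 signal was 8.98 in si-NC and 7.92 in si-*DRAIC*2. The difference was −1.06, or 2.09-fold lower. In order of difference from the lowest, it held rank 75 of the 12341 rows above the silent level. The transporter next to it in this order, *SLC1A4*, held rank 815. *SLC43A2*, which encodes the related leucine facilitator LAT4, went from 9.03 to 9.29. Its difference of 0.26 lay within 1.5-fold, at rank 2324 from the highest of the same 12341 rows. *SLC43A3*, a carrier of purine nucleobases and not of amino acids, was below the silent level in both arrays, at 4.67 and 4.66.

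RefSeq lists 2 starts for *SLC43A1* in GRCh38.p14. The gene was chosen as the transporter past 1.5-fold, and the 250 bases before the start that lies farther upstream are shown. They run along the minus strand at chr11:57515703-57515952, with the only CACGTG of this window, the letters of an E-box, in capitals.
*SLC43A1*: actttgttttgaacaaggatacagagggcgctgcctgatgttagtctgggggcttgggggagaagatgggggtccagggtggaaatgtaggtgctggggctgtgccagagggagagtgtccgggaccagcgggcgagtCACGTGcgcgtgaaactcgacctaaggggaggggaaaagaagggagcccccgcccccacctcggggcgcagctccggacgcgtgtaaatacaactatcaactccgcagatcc

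The window of the other *SLC43A1* start holds no CACGTG. In the window shown, the CACGTG begins 112 bases before the start. These letters, chosen for a search after this window had been read, read the same on both strands and are in 7.26% of all 35116 promoter windows of RefSeq genes, each of 250 bases before and 50 after a start, and in 9 of 51 windows of the transporter genes. Besides *SLC43A1*, 8 transporter genes have them, and all 8 lay within 1.5-fold (*SLC1A5*, *SLC1A7*, *SLC7A5*, *SLC7A7*, *SLC7A8*, *SLC36A1*, *SLC38A5* and *SLC38A7*).

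**Figure D2:**
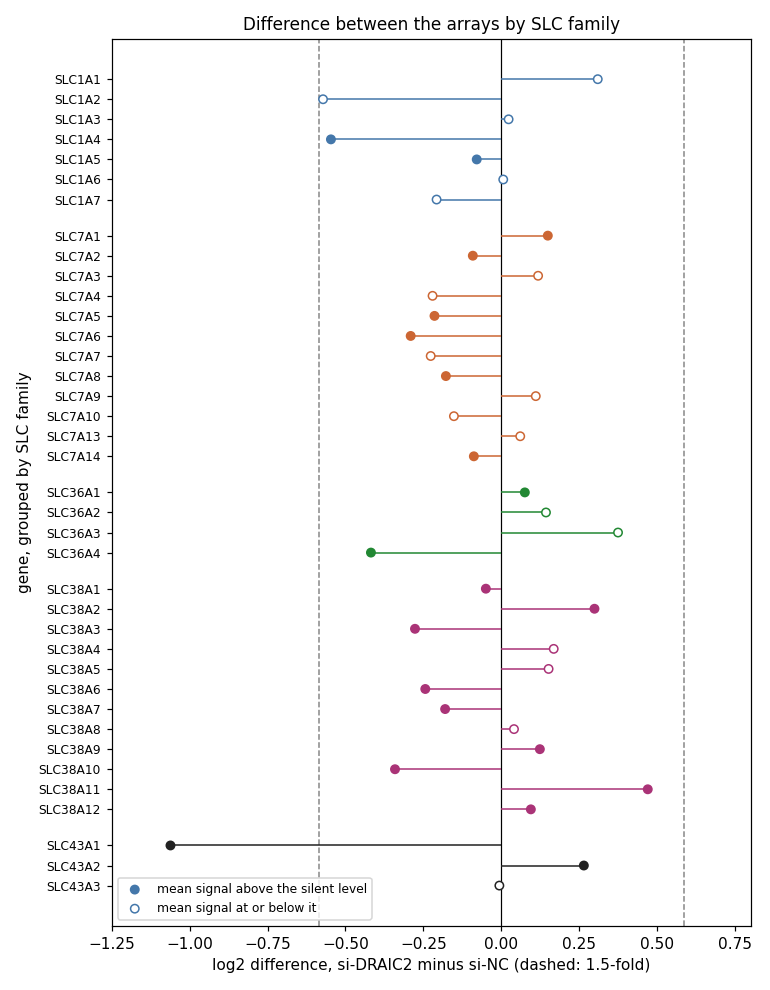
Log2 difference, si-DRAIC2 minus si-NC (horizontal axis), of each transporter gene by SLC family. Filled circles have a mean signal above the silent level, open circles do not, and the dashed lines mark 1.5-fold. SLC43A1 (−1.06) is past the line, and SLC1A2 (−0.57) and SLC1A4 (−0.55) lie just inside it.

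Of the SLC1 family, the genes of both neutral exchangers were above the silent level. *SLC1A4* encodes ASCT1, an exchanger of alanine, serine and cysteine. Its signal went from 8.65 to 8.10, by −0.55 or 1.46-fold, just short of the limit. *SLC1A5* encodes ASCT2, an exchanger that brings glutamine into many cancer cells. It had 12.86 and 12.78, a difference of −0.079.

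The 5 glutamate transporter genes *SLC1A1*, *SLC1A2*, *SLC1A3*, *SLC1A6* and *SLC1A7*, known from neurons, glia and retina, all had signals at or below the silent level. *SLC1A3* came closest to it, with 5.83 and 5.85. *SLC1A2*, the main glutamate transporter of astrocytes, had 4.32 in si-NC and 3.75 in si-*DRAIC*2. This is a difference of −0.57 or 1.49-fold, and it shrank to −0.19 once 32 had been added to each linear signal to damp dim values.

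Apart from *SLC7A11* (−1.15), which the rule leaves out, no gene of the SLC7 family passed 1.5-fold. Differences of the others ran from −0.29 to 0.15 with a median of −0.12. Among the CAT-type genes, *SLC7A1*, which encodes the widely used arginine and lysine transporter CAT1, had 12.84 in si-NC and 12.99 in si-*DRAIC*2, differing by 0.15. *SLC7A2*, which encodes CAT2, had 14.49 and 14.40, a difference of −0.092. *SLC7A14*, a lysosomal member of this branch, had 10.43 and 10.34, a difference of −0.089. *SLC7A3* and *SLC7A4* were below the silent level, so that 3 of the 5 CAT-type genes were above it and these 3 differed by at most 0.15 in size.

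Of the 7 light chain genes among the members, 3 were above the silent level, and all 3 had a difference below 0. *SLC7A5* encodes LAT1, the exchanger that takes up leucine and other large neutral amino acids in growing cells. Its signal was 14.91 in si-NC and 14.70 in si-*DRAIC*2, differing by −0.21. *SLC7A8*, which encodes LAT2, had 8.998 and 8.82, a difference of −0.18.

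*SLC7A6*, a light chain that exports arginine and lysine in exchange for neutral amino acids, had 11.96 and 11.67. Its difference of −0.29 was the lowest of the SLC7 family apart from *SLC7A11*. The other 4 light chain genes, *SLC7A7*, *SLC7A9*, *SLC7A10* and *SLC7A13*, were below the silent level. Of these, *SLC7A7* and *SLC7A9* are known from the epithelia of kidney and gut.

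Light chains reach the plasma membrane with a heavy chain. *SLC3A2*, which encodes the heavy chain CD98 that pairs with the products of *SLC7A5*, *SLC7A6* and *SLC7A8*, had 13.62 in si-NC and 13.54 in si-*DRAIC*2, differing by −0.080. *SLC3A1*, the heavy chain partner of the *SLC7A9* product, was below the silent level with 5.23 and 4.999. Genes of the 3 member light chains above the silent level, and of their heavy chain, thus all lay within 1.5-fold. *SLC7A11*, whose product also pairs with CD98 but exports glutamate for cystine, went from 13.22 to 12.07, a difference of −1.15 or 2.22-fold lower.

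Of the proton-coupled SLC36 family, *SLC36A1*, which encodes a carrier of small neutral amino acids at lysosomes and the cell surface, had 9.36 in si-NC and 9.43 in si-*DRAIC*2, differing by 0.075. *SLC36A4*, whose product carries proline and tryptophan, had 12.26 and 11.84, a difference of −0.42 or 1.34-fold. *SLC36A2* and *SLC36A3* were below the silent level.

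The SLC38 family had the most genes above the silent level, 9 of 12, and none past 1.5-fold. Of system A, the sodium-coupled uptake of small neutral amino acids, *SLC38A1* had 15.52 in si-NC and 15.47 in si-*DRAIC*2, differing by −0.050. *SLC38A2*, which cells induce when deprived of amino acids, had 13.85 and 14.15, a difference of 0.30. The third gene of system A, *SLC38A4*, was below the silent level. Of system N, which carries glutamine and histidine, *SLC38A3* lay slightly above the silent level with 6.84 and 6.56, and *SLC38A5* was below it.

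Among the other SLC38 genes, *SLC38A11* had the highest difference of all 38 transporters, 0.47 or 1.38-fold, from 7.45 in si-NC to 7.92 in si-*DRAIC*2. *SLC38A10* had 11.73 and 11.39, a difference of −0.34, and *SLC38A6* 10.92 and 10.68, a difference of −0.24. *SLC38A12* had 10.28 and 10.37, a difference of 0.094. *SLC38A7*, a lysosomal exporter of glutamine, lay close to the silent level with 6.32 and 6.14, and *SLC38A8* below it. *SLC38A9*, which acts as an arginine sensor at the lysosome, had 7.64 and 7.76, a difference of 0.12.

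**Figure D3:**
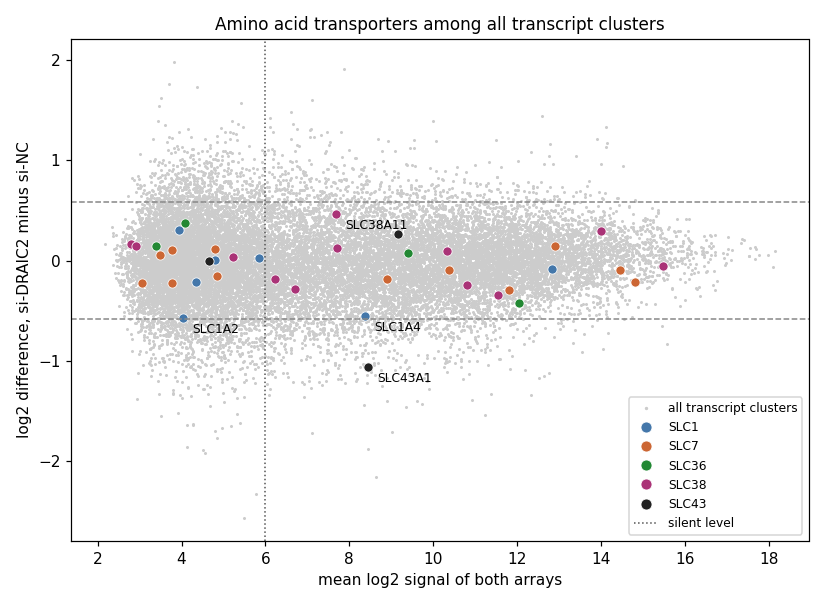
Log2 difference, si-DRAIC2 minus si-NC (vertical axis), against the mean log2 signal of both arrays (horizontal axis) for all 21448 transcript clusters (grey) and the 38 transporters (coloured by family). Dashed lines mark 1.5-fold and the dotted line the silent level. Apart from SLC43A1, the transporters lie between the dashed lines.

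Transporter genes known to respond to ATF4 had 7 differences below 0 and 2 above it. Of all rows above the silent level, 51.6% of differences were below 0. Whether these genes share a direction was not tested. Of 9 such transporter genes in a list written with earlier results of these data known, 6 of them in the 5 families, 2 were lower past 1.5-fold, *SLC43A1* and *SLC7A11*, and none was higher. This is 22.2% of the list, all of it above the silent level, beside 9.28% of all rows above that level, 5.32% lower and 3.95% higher. Since the list was written with earlier results known, neither this share nor the median below can be read as an excess. *SLC1A4* (−0.55) and *SLC6A9* (−0.43), which encodes a glycine transporter, had the next lowest differences. *SLC7A5* (−0.21), *SLC3A2* (−0.080) and *SLC1A5* (−0.079) lay closer to 0, and *SLC7A1* (0.15) and *SLC38A2* (0.30) above it. The median of the list was −0.21, beside −0.011 for all rows above the silent level.

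ATF4 binds C/EBP-ATF response elements, whose core was searched as TGATGNAA on both strands of the promoter windows. It is in 3.62% of all 35116 windows and in 5 of 51 windows of the transporter genes, which cover 31 of the 38 genes. The 5 windows belong to 5 genes, whose differences ran from −0.55 for *SLC1A4* to 0.15 for *SLC7A1*. Neither window of *SLC43A1* holds these letters. The matches are shown with the bases around them to set these genes beside *SLC43A1*, with the match in capitals, and that of *SLC1A4* is on the opposite strand.
*SLC1A3* (chr5:36596357-36596386, plus strand): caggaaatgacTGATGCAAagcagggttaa
*SLC1A4* (chr2:64989381-64989410, plus strand): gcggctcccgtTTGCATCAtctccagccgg
*SLC1A5* (chr19:46784893-46784922, minus strand): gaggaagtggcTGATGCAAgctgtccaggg
*SLC7A1* (chr13:29595663-29595692, minus strand): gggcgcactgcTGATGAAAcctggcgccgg
*SLC38A1* (chr12:46266502-46266531, minus strand): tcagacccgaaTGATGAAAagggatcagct

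The match of *SLC1A5* begins 97 bases before an annotated start, that of *SLC1A3* 220 bases, and those of *SLC1A4* and *SLC38A1* 7 and 4 bases. That of *SLC7A1* begins after the start. Of these genes *SLC1A4* had the signal farthest from equal in the arrays, and *SLC1A3* was below the silent level. Outside the members, a window of *SLC3A2* (−0.080) also holds a match. *SLC7A11* has no promoter window and could not be searched.

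In the SLC6 list 1 of 9 amino acid carriers (11.1%) passed 1.5-fold, and 1 of 7 (14.3%) among other carriers at the cell surface or lysosome. Both shares were near the 11.4% of all rows. Both called genes lay below the silent level, and 14.3% of all rows at or below that level passed. Of the 9 amino acid transporters of the SLC6 family, *SLC6A5* was higher with 3.10 and 3.73, both below the silent level, and none was lower. *SLC6A15*, a transporter of branched-chain amino acids and proline in neurons, had 12.22 and 12.50, and *SLC6A17*, its relative in synaptic vesicles, 12.28 and 11.96. Of the 7 other carriers, *SLC15A1* was higher with 3.35 and 4.05, also below the silent level. The 4 of them above that level had differences between −0.44 and −0.29. These were *SLC66A1* (−0.44), a lysosomal exporter of cationic amino acids, *SLC15A4* (−0.38), a lysosomal carrier of histidine and peptides, *CTNS* (−0.37), the lysosomal exporter of cystine, and *SLC16A10* (−0.29), a carrier of aromatic amino acids.

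Inside the cell, none of 4 vesicular glutamate, GABA and glycine carrier genes was above the silent level. Of 10 measured mitochondrial amino acid carriers none passed 1.5-fold, and the median was 0.080. Lists this short cannot tell a count of 0 from the share of all rows, 11.4%, or 9.28% above the silent level. *SFXN1*, which carries serine into mitochondria, had the highest difference of those above the silent level, 0.41, from 13.82 to 14.23. Of 8 measured genes of the Rag GTPases and the Ragulator complex, to which SLC38A9 binds, none passed 1.5-fold, and differences ran from −0.16 for *LAMTOR4* to 0.42 for *RRAGD*.

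**Figure D4:**
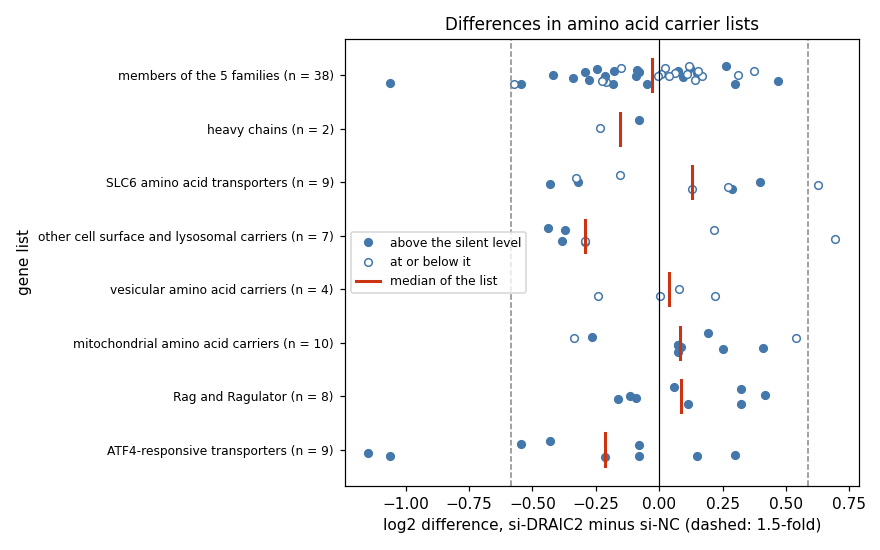
Log2 difference, si-DRAIC2 minus si-NC (horizontal axis), of each gene in the 5 transporter families and in 7 lists of partners and other amino acid carriers. Circles are genes, filled above the silent level and open at or below it, spread vertically for visibility, red bars are medians and dashed lines mark 1.5-fold. The medians are −0.028 for the 5 families and −0.21 for the ATF4-responsive transporters, which share 6 genes with them.

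The remaining 316 rows with SLC symbols, from all other families and with *SLC7A11*, gave a wider set of differences. Of these 15.8% passed 1.5-fold, 20 higher and 30 lower, against 2.63% of the 38 transporters. Above the silent level, 30 of 184 (16.3%) passed, 6 higher and 24 lower, against 1 of 21 transporters. *SLC7A11* (−1.15) is among these 24 and was kept out of the 21 by the rule. Both shares therefore depend on where it is counted. The SD of the differences was 0.42 for these 184 rows, 0.33 for the 21 transporters and 0.35 for all rows above the silent level. With 1 array per condition the gap between the transporters and other SLC genes was not tested.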

How the data were processed

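Total RNA of VMRC-LCD cells was measured on 1 array for each of 2 siRNAs. The authors processed the scanned arrays with the SST-RMA method of the Transcriptome Analysis Console (background correction, quantile normalization, summarization of probes) and deposited log2 signals. Such scaling hides a change shared by all transcripts. RMA and this console are also named in the processing notes of the submitters. The software version and the genome build of the array were not given in the sources used here.

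Values were used as deposited. Rows were named through the platform annotation, which leaves 3739 rows unnamed, and all 38 member symbols matched the RefSeq gene table of GRCh38.p14. The members, the gene lists and the rule for named genes were chosen with earlier results of these data known. Under that rule every transporter past 1.5-fold or above the silent level is given with both signals, as are *SLC7A11*, *SLC3A1* and *SLC3A2*. The silent level, the fold limit and the motif searches are defined beside their results. Of the mitochondrial and Ragulator lists, 1 gene each had no named row (*SLC25A15*, *LAMTOR1*). No test was made, and precision is limited by the number of arrays. The code for the calls and the loess was tested on simulated data with differences well past the limit and little noise. That test does not show how the calls behave at the noise of these arrays. Calculations used Python 3.11.15, numpy 2.4.6, pandas 2.3.3 and statsmodels 0.14.6, and plots matplotlib 3.10.9.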

Additional observations from a re-analysis of the deposited data

How the results depend on the processing

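The 38 transporters gave 1 lower and no higher gene with the median difference of all rows set to 0, with a loess on the mean signal (span 0.3) subtracted, with 32 added to both linear signals and with a 2-fold limit, and so did the 21 above the silent level and the 19 at or above the median signal. The difference of *SLC43A1* ran from −1.05 to −0.97 over the first 3 of these. Averaging rows of one symbol could change nothing, since each transporter has 1 row. In 114 recomputed differences of single genes no call changed. Centring shifts every difference by the same small amount and the offset can only shrink it, so few calls could have changed under them. The median difference of the transporters was −0.018 after centring, −0.028 after the loess, −0.024 with the offset, −0.092 above the silent level and −0.089 at or above the median signal. Each transporter rests on 1 signal per array, and below the silent level a change in the transcript may not move the signal. No paired analysis was possible because each condition has 1 array.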
